A study of Mus musculus with 4 samples.

Results

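The Epha4 promoter segment is the 40 kb of chromosome 1 from 77.49 to 77.53 Mb (build mm9; each stretch is given in Mb and starts at the base after its first value) that holds the transcription start of Epha4, a gene on the minus strand. It was read as a viewpoint: the 4 bins of 10 kb that make it up were paired with every bin from 71.00 to 81.00 Mb that lay at least 20 kb away. This gave 3985 of the 498501 such pairs of bins in the map, and 4 of its 1000 bins. The members were fixed by position and not by any measured value. The maps are capture Hi-C maps of mouse distal limb buds at stage E11.5, a mixed tissue, with 1 library for each of 4 genotypes. WT carries neither a deletion nor an inversion, and 3 homozygous mutants carry a rearrangement of the Epha4 locus. DelB lacks 76.39 to 78.06 Mb and DelBs lacks 76.39 to 77.86 Mb, so both lack the whole promoter segment. InvF keeps the segment in place and has 74.83 to 75.90 Mb turned round. The labels do not give these intervals. They were known from earlier work on these maps and were read from the maps again: both deletions showed up, at these same bins, as the longest unbroken stretch with less than 10% of the counts per library that WT had. In InvF the ratio to WT along the promoter's profile rose most at the left end given here and 1 bin to the left of the right end. The maps hold no expression values, so the tissue could not be checked against marker genes and no level of Epha4 RNA is known here.

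Epha4 encodes a receptor tyrosine kinase that binds ephrins on neighbouring cells and is known for its part in axon guidance. A promoter and its distant enhancers usually lie in one topologically associating domain, a stretch of chromosome whose parts meet each other more often than they meet the sequence beyond its borders. Published work on this locus describes limb enhancers of Epha4 in the gene desert on the Slc4a3 side of the gene, and Pax3, a transcription factor gene, in the next domain on the other side. In the GRCm38.p6 gene table of RefSeq, 0 protein-coding genes lie between Slc4a3 and Epha4 and 0 between Epha4 and Pax3. That table places 9 other genes in the first stretch (4 lncRNA genes, 1 miRNA gene and 4 pseudogenes) and 6 in the second (4 lncRNA genes, 1 miRNA gene and 1 snRNA gene). In what follows left means lower coordinates, towards Slc4a3, and right means higher coordinates, towards Pax3.

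The proximal promoter is shown because it is the sequence around which the viewpoint was placed. It runs over chr1:77515039-77515338 on the minus strand of GRCm38.p6, with 250 bases before and 50 bases from the RefSeq start site. This build differs from the mm9 of the maps, so these positions are not to be set against the bins. Capitals mark the motifs that were found in a search of both strands.
Epha4 promoter: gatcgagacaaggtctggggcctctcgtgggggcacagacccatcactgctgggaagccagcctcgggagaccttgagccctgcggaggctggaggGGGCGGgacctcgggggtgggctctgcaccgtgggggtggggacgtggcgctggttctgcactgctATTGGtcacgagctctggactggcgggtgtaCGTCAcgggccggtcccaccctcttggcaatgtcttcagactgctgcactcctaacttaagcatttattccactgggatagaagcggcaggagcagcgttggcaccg
A GC box (GGGCGG) starts at base 97 of this run, a CCAAT box (CCAAT, on the opposite strand) at base 163 and the letters TGACG, which are part of the cAMP response element, on the opposite strand at base 194, with no overlap between them. These letters are found in 35.7%, 37.4% and 20.8% of the 32851 RefSeq promoter windows of the same length. A TATA box (TATAAA) has no match in these letters, against a match in 13.6% of windows. The core of the motif of CTCF, a protein that binds many domain borders, has none either, against 2.43% of windows. The motifs were chosen after the sequence was seen. The promoter is 64% G or C (median of all windows 52.7%) and holds 17 CG pairs (median 7).

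The libraries held 5155274 counts of read pairs in WT, 6073471 in InvF, 5543587 in DelB and 5832748 in DelBs. The viewpoint took 41544 counts in WT and 51073 in InvF, which is 0.806% and 0.841% of each library, and 71.0% and 73.5% of its pairs were not empty. Each genotype is a single library, so the spread between embryos is unknown and differences carry no p-value. Ranges in parentheses are exact 95% intervals and cover counting error alone. InvF counts were divided by 1.24 for every ratio to WT. That factor comes from pairs that no rearrangement touches; by all counts it would be 1.18 and by the viewpoint's own pairs outside the inversion 1.30.

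Counts at the viewpoint were bound to be low in DelB and DelBs, because the deleted stretches were read from low counts in these maps. They measure what remained there and are not a separate check of the labels. DelB held 1484 counts there and DelBs 805, or 2.49% (2.36% to 2.62%) and 1.29% (1.21% to 1.39%) of what WT had after scaling. The 4 bins ranged from 2.41% to 2.61% in DelB and from 1.17% to 1.56% in DelBs. Residual counts were spread over the targets of the WT profile: in DelB they stood at 2.42% of WT with the stretch from 75.90 to 76.39 Mb and at 2.64% with 78.06 to 79.14 Mb, and in DelBs at 1.35% and 1.14%, with intervals that overlap within each mutant. In the authors' deposited table of differences, none of the 2377 pairs of the viewpoint had a value other than 0 in DelB or DelBs. Pairs missing from that table were also read as 0, so a listed 0 and a missing pair cannot be told apart. Both deletions lack the segment, so neither has a contact profile of this promoter. WT and InvF alone are described from here on.

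In WT the Epha4 promoter segment reached far to the left and little to the right. Of its 41544 counts, 31251 lay to the left (75.2%, 74.8% to 75.6%) and 9849 to the right (23.7%), with the remainder inside the segment. Of the left contacts 50% lay within 880 kb and 90% within 1880 kb; on the right the same points came at 290 kb and 1170 kb. The class of 1000 to 2000 kb to the left alone held 12348 counts, 29.7% of the profile (29.3% to 30.2%), against 605 counts or 1.46% in the same class to the right. The left side had 3479 counts below 100 kb, 7059 from 100 to 500 kb and 6250 from 500 to 1000 kb, so the class of 1000 to 2000 kb, which is also the widest of the 4, held the most.

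**Figure D1:**
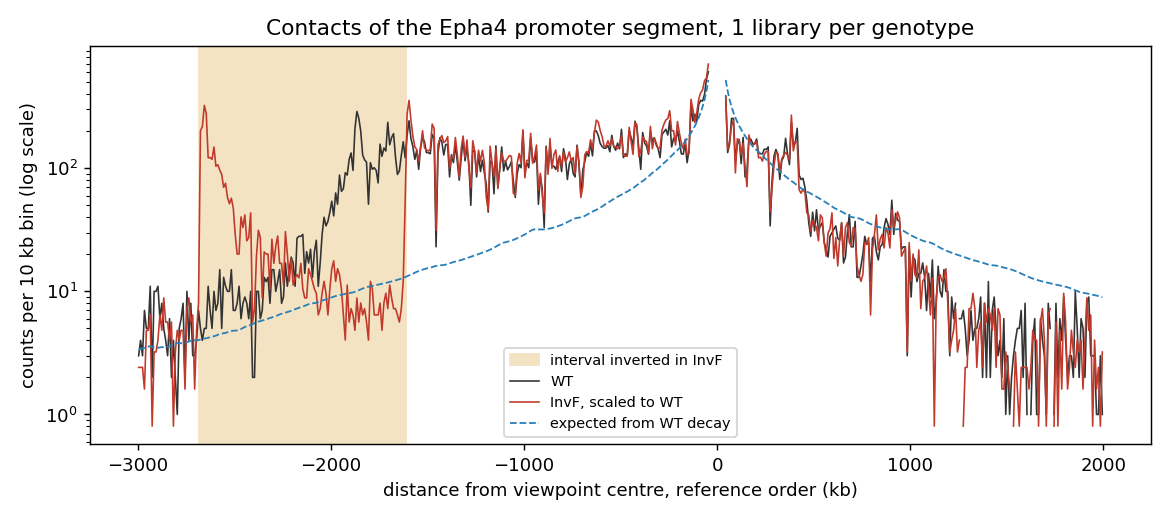
Counts of the 4 viewpoint bins with each 10 kb bin (log scale) against distance from the viewpoint centre in reference order, for WT and for InvF scaled to WT; the dashed line is the level expected from the fall of WT counts with distance, bins nearest the viewpoint are left out, and shading marks the interval inverted in InvF. WT lies mostly above the dashed line to the left, with a peak of 289 counts 1865 kb away, and mostly below it to the right beyond 500 kb, while InvF follows WT except in the shaded interval and next to its right edge.

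On the left, observed over expected rose with distance. The expected level is the library's average at equal distance over pairs that lie together on one side of every rearranged interval. At 490 kb and beyond, such pairs lie only within 71.00 to 74.83 Mb or within 78.06 to 81.00 Mb. Values by distance are not given for other segments, so the rise is not shown to be particular to this one. Observed over expected was 1.04 below 100 kb on the left, 1.51 from 100 to 500 kb, 3.09 from 500 to 1000 kb and 7.63 from 1000 to 2000 kb. On the right the same classes gave 0.687, 1.07, 0.680 and 0.374. The measure does not correct for how well each bin was captured, and it fell in size with balanced values or coverage in the expected level, as the values by region below show. Among 149 segments of 40 kb with at least 2 Mb of map on each side, the promoter segment had the highest share of its contacts within 2 Mb at 1 to 2 Mb to the left, at 32.2% against a median of 5.17%. It ranked 8 of 149 in counts within 2 Mb (38421 against a median of 25926), and its right share within 2 Mb, 24.1%, ranked 147 against a median of 50.1%.

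By fixed region, the highest level for its distance lay far to the left of the gene. The stretch from 75.65 to 75.90 Mb, which is the last 250 kb of the interval turned in InvF, had 3391 counts in WT and stood at 11.7 times the expected level (11.3 to 12.1). It was followed by the 490 kb from 75.90 to 76.39 Mb, part of the gene desert kept in both deletions, with 6199 counts and 7.12 times (6.94 to 7.30). The 570 kb from 75.08 to 75.65 Mb stood at 5.06 times with 2187 counts, and the 250 kb from 74.83 to 75.08 Mb at 1.84 times with 210 counts. With balanced values these 4 regions stood at 7.06, 4.51, 3.32 and 1.38 times, in the same order. The 1000 kb from 76.39 to 77.39 Mb, which ends 100 kb short of the viewpoint, had the most counts, 14034 or 33.8% of the profile, at 2.18 times the expected level. That value was 1.42 with balanced values and 0.96 when coverage entered the expected level, so it has no settled direction.

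To the right the profile stepped down inside the segment that separates DelB from DelBs. The 100 kb next to the viewpoint, 77.53 to 77.63 Mb, had 2667 counts and stood at 0.683 times the expected level, and 77.63 to 77.86 Mb had 2960 counts and stood at 0.970 times. The first 80 kb of the DelB-only segment, 77.86 to 77.94 Mb, rose to 2.02 times with 1261 counts, and the remaining 120 kb, 77.94 to 78.06 Mb, fell to 0.775 times with 574 counts. The single bin 77.89 to 77.90 Mb held 235 counts, that of 77.92 to 77.93 Mb held 211, that of 77.93 to 77.94 Mb held 88 and that of 77.99 to 78.00 Mb held 28. The division at 77.94 Mb was chosen after the values were seen. Over the whole DelB-only segment the value was 1.34, and it turned to 0.95 with balanced values and 0.68 with coverage in the expected level. Beyond it, the 1080 kb from 78.06 to 79.14 Mb, on the Pax3 side, held 1640 counts and stood at 0.560 times (0.533 to 0.588), and 79.14 to 81.00 Mb held 747 counts and stood at 0.710 times.

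Windows of 100 kb showed the same slope in finer steps. Of 47 windows over 100 kb from the viewpoint with at least 50 counts in WT or InvF, 20 stood above 2 times the expected level in WT; all 20 were among the 29 on the left and none were among the 18 on the right. On the right 13 of the 18 lay below 1, and on the left 0 of 29. With balanced values, a comparison added after seeing the data, 15 of 29 on the left and 0 of 18 on the right stood above 2, and 2 of 29 and 17 of 18 below 1. Such windows were not counted for the other 40 kb segments of the map. The expected level also leaves out every pair with a bin inside a rearranged interval. The counts therefore describe this profile and do not show that it differs from those of nearby segments. The highest window was 75.60 to 75.70 Mb with 1658 counts and 16.3 times (15.5 to 17.1). It was followed by 75.80 to 75.90 Mb with 12.0 times, 75.90 to 76.00 Mb with 11.2 times, 75.70 to 75.80 Mb with 9.73 times and 76.00 to 76.10 Mb with 8.69 times. Beyond the top window the level dropped to 7.06 times at 75.50 to 75.60 Mb and 3.02 times at 75.40 to 75.50 Mb. The lowest were 78.80 to 78.90 Mb with 53 counts and 0.299 times (0.224 to 0.391), 78.70 to 78.80 Mb with 0.301, 78.90 to 79.00 Mb with 0.322, 79.30 to 79.40 Mb with 0.441 and 78.60 to 78.70 Mb with 0.493.

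**Figure D2:**
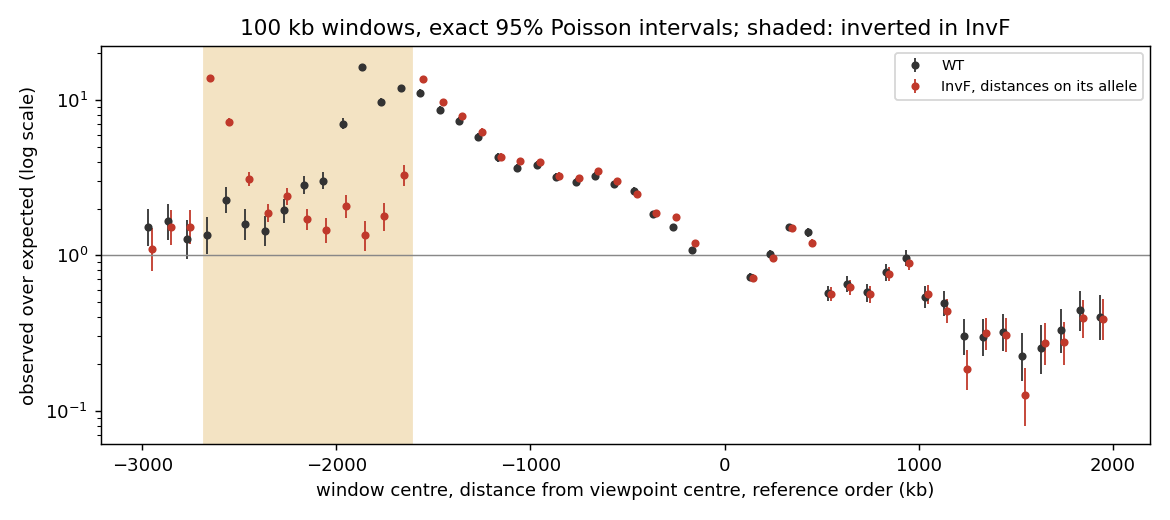
Observed over expected (log scale) of viewpoint contacts with 100 kb windows, against the distance of the window centre from the viewpoint centre in reference order, for WT and for InvF with distances taken on its own allele; bars are exact 95% Poisson intervals and the shading marks the interval inverted in InvF. WT climbs to 16.3 on the left within the shaded interval, InvF reaches 13.8 at the left edge of that interval and 13.6 just right of it, where WT stands at 11.2, and ratios of InvF to WT in the 36 windows with at least 50 counts wholly outside the interval run from 0.622 to 1.23.

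At 10 kb resolution the WT profile had 16 local maxima of observed over expected, 12 on the left and 4 on the right, and the 10 highest were all on the left. The highest by far was 75.63 to 75.66 Mb, 1865 kb from the viewpoint centre, with 754 counts and 25.0 times the expected level (23.2 to 26.8). Its 3 bins held 210, 289 and 255 counts, against 96 in the bin before them, and the neighbouring 40 kb on either side of 75.63 to 75.67 Mb stood at 11.2 and 9.51 times.
The next maxima were 75.80 to 75.83 Mb with 569 counts and 15.9 times, and 75.90 to 75.93 Mb with 601 counts and 14.8 times. Next came 75.97 to 76.00 Mb with 489 counts and 10.9 times, and 76.19 to 76.22 Mb with 436 counts and 7.90 times, both right of the inverted interval. The other 5 of the 10 lay between 3.81 and 4.85 times: 76.48 to 76.51 Mb, 76.39 to 76.42 Mb, 76.87 to 76.90 Mb, 76.62 to 76.65 Mb and 75.34 to 75.37 Mb. The last of these rests on 85 counts. The highest maximum on the right was 77.89 to 77.92 Mb, 395 kb away, with 550 counts and 2.39 times the expected level (2.19 to 2.59). With balanced values 6 of the 10 highest maxima were found again within 20 kb, with single bins 7, and with a wider neighbourhood of 100 kb on each side 5.

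The 4 bins of the promoter segment were not alike. Of contacts 20 kb to 1 Mb away, the share that pointed right was 30.2% in the bin of 77.49 Mb (29.1% to 31.4%), 27.4% in that of 77.50 Mb (26.4% to 28.4%), 36.7% in that of 77.51 Mb (35.5% to 37.9%) and 46.3% in that of 77.52 Mb (45.1% to 47.6%). The intervals of all 4 stood apart, and the share turned from its lowest value to near balance over 30 kb. The neighbours continued the change: the bin of 77.48 Mb had 31.8%, and the bin of 77.53 Mb had 50.0%.

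**Figure D3:**
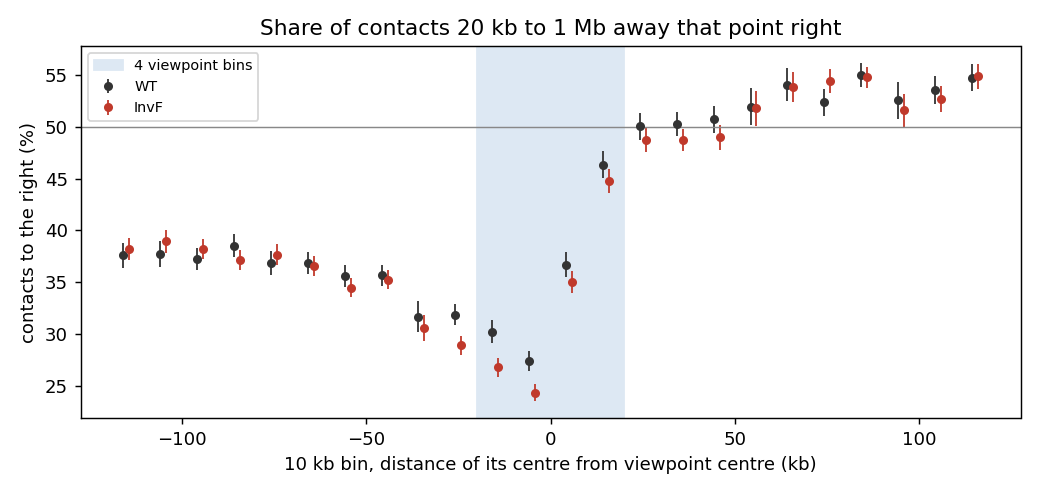
Share of contacts 20 kb to 1 Mb away that point right, in percent, for each 10 kb bin against its distance from the viewpoint centre, for WT and InvF; bars are exact 95% binomial intervals and the shaded band marks the 4 viewpoint bins. The share falls to 27.4% in WT and 24.3% in InvF at the bin of 77.50 Mb and climbs to about 50% just right of the band.

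The bins also differed in where on the left they reached. The bin of 77.50 Mb stood highest with the last 250 kb of the inverted interval (14.1 times the expected level in WT, 1028 counts), followed by 77.51 Mb (13.1 times, 946 counts), 77.49 Mb (10.2 times, 751 counts) and 77.52 Mb (9.35 times, 666 counts). The intervals of the first pair overlap. The order turned with balanced values, which gave 6.35, 7.07, 8.42 and 6.42 times in order of position, and as a share of each bin's own profile 77.51 Mb was also highest, at 9.57% against 8.08% for 77.50 Mb. With the 100 kb just to the left, 77.39 to 77.49 Mb, the bins on the left of 77.51 Mb stood at 1.17 and 1.42 times the expected level and those on the right of it at 0.743 and 0.675 times. With balanced values all 4 lay below 1, at 0.781, 0.714, 0.501 and 0.469 times in order of position. With the 100 kb just to the right the order was the other way round, from 0.567 and 0.602 to 0.665 and 0.856 times (with balanced values 0.432, 0.362, 0.528 and 0.697). With 75.90 to 76.39 Mb the 4 bins stood at 6.30, 8.33, 7.88 and 5.95 times in order of position, so all 4 had the far left contacts.

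InvF asks what the promoter meets when a stretch far to its left is turned round and the gene is not moved. The last 250 kb of the inverted interval, 75.65 to 75.90 Mb, had 3391 viewpoint counts in WT and 293 in InvF, and the ratio of InvF to WT was 0.0695 (0.0615 to 0.0783). The first 250 kb, 74.83 to 75.08 Mb, had 210 counts in WT and 3109 in InvF, a ratio of 11.9 (10.3 to 13.8). On the InvF allele the first 250 kb lie nearer to the promoter and the last 250 kb further away, so both ratios include the change in distance. With distances on each allele, the first 250 kb stood at 1.84 times the expected level in WT and 8.49 times in InvF. The last 250 kb stood at 11.7 times in WT and 2.25 times in InvF. The libraries differed in opposite directions in these stretches, by far more than counting error. The ends of the interval were read from these same maps, and read again from this profile. A contrast at the ends was therefore partly built in and is no separate check of the inversion. The 570 kb between them, 75.08 to 75.65 Mb, had 2187 counts in WT and 1021 in InvF, a ratio of 0.375 (0.348 to 0.405). Taken as a whole the inverted interval gave the promoter 5788 counts in WT, 13.9% of its profile, and 4423 in InvF, 8.66%, with a ratio of 0.614 (0.591 to 0.639).

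By windows of 100 kb with at least 50 counts in one of the libraries, 4 of 51 windows of the promoter segment were over 2-fold higher in InvF and 5 of 51 over 2-fold lower. The 9 windows all touch the inverted interval. Over all 40 kb segments of the map 5.32% of such windows were over 2-fold higher and 6.5% lower. Among windows that touch the inverted interval, seen from segments outside it, the promoter had 4 of 11 higher and 5 of 11 lower, against 20.6% and 26.4% for all such segments. Outside the interval it had 0 of 40 in either direction, against 0.0339% higher and 0.181% lower.
The highest ratio was at 74.80 to 74.90 Mb, with 56 counts in WT and 1741 in InvF, a ratio of 25.0 (19.2 to 33.2); 30 kb of that window lie left of the inversion. The next were 74.90 to 75.00 Mb with 8.24, 75.00 to 75.10 Mb with 4.10, 75.10 to 75.20 Mb with 2.06 and 75.20 to 75.30 Mb with 1.60. The lowest ratio was at 75.60 to 75.70 Mb, the WT summit, with 1658 counts in WT and 82 in InvF, a ratio of 0.0398 (0.0315 to 0.0497). It was followed by 75.70 to 75.80 Mb with 0.0695, 75.80 to 75.90 Mb with 0.0853, 75.50 to 75.60 Mb with 0.178 and 75.40 to 75.50 Mb with 0.389.

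The local maxima of WT inside the inverted interval had fewer counts in InvF, by unequal amounts. These places were picked for being high in WT, so a lower value in InvF was partly built in. The peak at 75.63 to 75.66 Mb went from 754 to 24 counts (ratio 0.0256, 0.0163 to 0.0384), and on the InvF allele it stood at 1.30 times the expected level for its new distance. The peak at 75.80 to 75.83 Mb went from 569 to 34 counts (ratio 0.0480), and stood at 2.26 times. The smaller maximum at 75.34 to 75.37 Mb was lowered less, from 85 to 50 counts (ratio 0.473, 0.327 to 0.679), and stood at 1.77 times. Between the inversion and the gene, the WT maxima at 76.19, 76.48, 76.87 and 76.62 Mb were maxima in InvF too; that at 76.19 to 76.22 Mb had 436 counts in WT and 590 in InvF (ratio 1.09, 0.960 to 1.23). Those at 75.97 and 76.39 Mb were not among the InvF maxima, although their counts were near those of WT after scaling: 489 and 620 at 75.97 to 76.00 Mb (ratio 1.02, 0.904 to 1.15) and 358 and 448 at 76.39 to 76.42 Mb (ratio 1.01). The maximum at 75.90 to 75.93 Mb, beside the junction, went from 601 to 1091 counts (ratio 1.46, 1.32 to 1.62). The last bin of the interval, 75.89 to 75.90 Mb, kept 66 counts against 122 in WT, more than any other bin of the last 250 kb in InvF, so this bin may hold the break. Without it the ratio over the last 250 kb was 0.0558.

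In InvF the promoter had its high stretches on either side of the right junction, one of them near the expected level in WT and the other already high there. The interval's ends were read from these maps, so high values next to the junction were partly built in. The first 40 kb of the inverted interval, 74.83 to 74.87 Mb, which border the junction on the InvF allele, went from 19 to 1273 counts, a ratio of 53.9 (34.4 to 89.8). They stood at 19.5 times the expected level (18.5 to 20.7), against 1.16 times in WT (0.696 to 1.80), and their 4 bins held 251, 271, 403 and 348 counts, against 5, 4, 5 and 5 in WT. The next 40 kb, 74.87 to 74.91 Mb, held 635 counts and stood at 10.2 times. On the other side, the 40 kb from 75.90 to 75.94 Mb, which did not move, went from 751 to 1318 counts, a ratio of 1.41 (1.29 to 1.55), and from 13.8 to 19.1 times the expected level. That ratio was 1.49 and 1.35 with the other scalings. The next 40 kb, 75.94 to 75.98 Mb, had a ratio of 1.10 (0.980 to 1.24).

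Counted by place on the allele rather than by sequence, InvF and WT differed most 200 to 300 kb beyond the right junction. In the first 100 kb beyond the junction InvF, which has 74.83 to 74.93 Mb there, had 2170 counts and WT, with 75.80 to 75.90 Mb there, had 1480, a ratio of 1.18 (1.10 to 1.26). In the next 100 kb the ratio was 0.541 (0.492 to 0.594), and from 200 to 300 kb, where WT has its summit, 0.159 (0.141 to 0.179, from 328 and 1658 counts). It was 0.315 from 300 to 400 kb, 0.714 from 400 to 500 kb and 0.583 from 500 to 600 kb. From 600 to 700 kb it was 0.823 (0.640 to 1.06), with 130 counts in InvF and 127 in WT. Further out it was 1.11 from 700 to 800 kb and 0.915 (0.670 to 1.25) from 800 to 900 kb. From 900 to 1000 kb it was lower again, at 0.742 (0.557 to 0.989). The ratio thus lay nearer to 1 from 600 to 900 kb than from 200 to 400 kb, but did not settle there. Sequence placed at the same distance from the promoter therefore had more counts than in WT in the first 100 kb and fewer in the following 500 kb. This comparison was chosen after the values were seen.

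**Figure D4:**
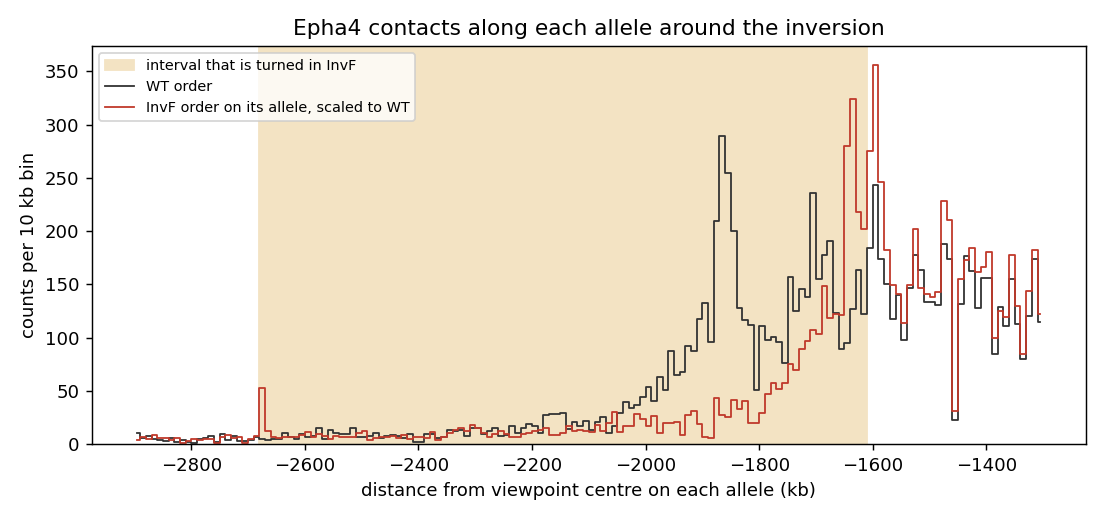
Viewpoint counts per 10 kb bin against distance from the viewpoint centre along each allele, with InvF bins in their turned order and scaled to WT; the shading marks the interval that is turned. WT shows its peak of 289 counts in a bin near the middle of the shaded interval's right part, whereas InvF peaks on both sides of the right junction and declines over the next 200 kb, and the lone InvF spike at the left edge is the bin that may hold the break.

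Across the rest of the profile the ratios lay nearer to 1. Over the 36 windows of 100 kb wholly outside the inversion that had at least 50 counts in one library and lay over 100 kb from the viewpoint, the ratio of InvF to WT had a median of 1.02 and ranged from 0.622 to 1.23. Over all 89 windows outside it, many with few counts, the median was 0.961 and the lowest 0.514. Of the 36, the 14 windows between the inversion and the gene had a median of 1.08, with 13 of 14 above 1, and the 18 windows on the right a median of 0.990, with 7 of 18 above 1. By region the ratio was 1.14 for 75.90 to 76.39 Mb (1.10 to 1.18), 1.08 for 76.39 to 77.39 Mb (1.05 to 1.10) and 1.11 for 77.39 to 77.49 Mb. On the right it was 0.957 for 77.53 to 77.63 Mb (0.909 to 1.01), 0.971 for 77.63 to 77.86 Mb, 0.929 for 77.86 to 78.06 Mb (0.872 to 0.989) and 0.970 for 78.06 to 79.14 Mb. The left values stayed above 1 with both other scalings (1.03 to 1.20), while the right ones moved across 1 in 3 of 4 regions with the scaling by all counts (0.980 to 1.02), so on the right no direction is settled. Left of the inversion, 71.00 to 74.83 Mb had 1156 counts in WT and 1233 in InvF, a ratio of 0.858 (0.791 to 0.930).

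The share of contacts up to 1 Mb that points right needs no scaling and does not reach the inverted interval; its comparison between InvF and WT was chosen after the values were seen. It was 34.4% in WT (33.8% to 34.9%) and 31.8% in InvF (31.3% to 32.3%) over the whole promoter segment. These values add up the 4 bins, so a pair inside the segment counts once on each side. By bin the InvF values were 26.8%, 24.3%, 35.0% and 44.7% in order of position, and the difference from WT ran from -3.45 to -1.60 percentage points. The intervals of InvF lay below those of WT in 2 of the 4 bins, those of 77.49 Mb and 77.50 Mb, against 3.45% of the 493 bins of the map that could be compared and 4.06% with InvF above. Of the 493 bins, 6 had a lower difference than the bin of 77.50 Mb. With 1 library per genotype it is not known how far such shares vary between embryos.

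In the authors' deposited table of differences between InvF and WT, 4.84% of the 2377 pairs of the viewpoint had a value above 0 and 5.72%, or 136 pairs, a value below 0. The same shares over all pairs of that map were not computed. The counts here therefore do not show whether anything is particular to this promoter. Of the pairs above 0, 68 lay in the first 250 kb of the inverted interval, 4 in its middle, 23 in 75.90 to 76.39 Mb, 15 in 76.39 to 77.39 Mb, 4 in 77.39 to 77.49 Mb and 1 in 77.86 to 78.06 Mb. Of those below 0, 92 lay in the last 250 kb and 42 in the middle of the interval, with 1 in 76.39 to 77.39 Mb and 1 in 77.86 to 78.06 Mb. The authors' deposited table had 0 values other than 0 for the viewpoint with 77.53 to 77.86 Mb and with 78.06 to 79.00 Mb.

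The 40 kb segments whose WT profile was most like that of the promoter segment were 77.85 to 77.89 Mb (Pearson r of 0.974 over 62 windows of 100 kb), 77.25 to 77.29 Mb (0.954 over 66 windows) and 77.01 to 77.05 Mb (0.887 over 63 windows). The median over 213 segments was 0.221. The likeness is a description of log2 observed over expected in one library, and segments near each other share their windows, so it has no test. The most similar segment lies on the right of the gene and overlaps the start of the DelB-only segment, and in InvF its r was 0.954.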

How the data were processed

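The raw maps deposited by the authors list read pair counts by pairs of 10 kb bins. Alignment used Bowtie2 2.2.6 and mm9, per the submitters' processing notes, with a mapping quality of 30 in the file names. The KR-balanced signal was also deposited by the authors; 14 values in WT and 7 in InvF were not numbers and were left out. The deposited difference maps hold a score whose construction the sources used here do not state, nor do they state whether duplicates were removed.

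Every other value was computed in Python 3.11.15 (scipy 1.17.1, numpy 2.4.6, figures with matplotlib 3.10.9). The viewpoint was 77490001 to 77530000. Scaling used pairs 20 kb to 2 Mb apart whose bins lie on the same side of all rearranged intervals (74830001 to 75900000, 76390001 to 78060000). The expected level was the library's mean over such pairs at each distance, up to 3.78 Mb, with distances along the allele in InvF. Intervals were conditional binomial for ratios, Poisson for observed over expected and Clopper-Pearson for shares. Fold calls on windows of 100 kb needed at least 50 counts in one library and used a pseudocount of 1. Maxima were running sums of 3 bins, highest within 50 kb on each side, with at least 50 counts. Named stretches were the fixed regions, the 5 highest and 5 lowest windows by each measure, the 10 highest maxima and the 3 most similar segments; the 40, 80 and 120 kb parts single bins and the ranking among segments were chosen after their values were seen. The viewpoint, regions and lists were chosen with earlier results of these data known. Scripts were tested on simulated maps. Columns matched to no sample numbered 0.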

Additional observations from a re-analysis of the deposited data

How the results depend on the processing

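No paired analysis was possible because each genotype had 1 library. Of 89 recomputed values of the main comparisons 33 stayed within counting error (counts of windows, within 1.5 times), 56 moved and 0 changed direction. Of 268 others 93 stayed, 158 moved and 17 changed direction, and the causes were not tested. The 0 carries little weight, because counts of windows, the share far to the left and the deletion residuals have no direction that could change. Leaving out the pairs nearest the viewpoint could not alter the main InvF to WT ratios either, since those stretches lie far away. With single viewpoint bins (77.49, 77.50, 77.51 and 77.52 Mb in that order where 4 are given), the InvF to WT ratio was 7.94 at 77.49 Mb and 20.9 at 77.51 Mb for the first 250 kb of the inverted interval, 0.0792, 0.0536 and 0.0857 (77.49, 77.51, 77.52 Mb) for the last 250 kb, and 1.09 and 1.23 (77.49, 77.52 Mb) for the kept desert. The latter was 1.20 scaled by all counts and 1.09 by viewpoint pairs. Without the bin next to the right breakpoint, added after seeing the data, the last 250 kb gave 0.0558. Single bins turned the ratio to 0.979 for the 100 kb left of the viewpoint (77.52 Mb) and 1.02 right of 79.14 Mb (77.51 Mb).

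Observed over expected in WT for the last 250 kb was 7.06 with balanced values, 4.75 with coverage in the expected level, 9.22 with an expected level over all pairs, and 10.2, 14.1, 13.1 and 9.35 by single bin; for the kept desert these were 4.51, 3.11, 5.91, and 6.30, 8.33, 7.88 and 5.95. In InvF the first 250 kb gave 5.54, 4.05, 7.52, and 7.00, 9.97, 9.70 and 7.29, and 23.8 with distances in reference order, with which the last 250 kb fell to 0.800. Balanced values and coverage turned the 100 kb left of the viewpoint to 0.634 and 0.436 in WT and to 0.700 and 0.487 in InvF, and the DelB-only segment to 0.954 and 0.680 in WT and 0.856 and 0.608 in InvF; coverage turned the 1000 kb interior to 0.958 in WT. The bins of 77.51 and 77.52 Mb gave 0.743 and 0.675 in WT and 0.783 and 0.667 in InvF for the 100 kb to the left, and 77.52 Mb gave 1.14 in InvF for 77.63 to 77.86 Mb.

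Windows over 2-fold higher numbered 7 at 50 kb and 2 at 200 kb, and lower 9 and 2; 8 were over 1.5-fold lower. The WT right share was 37.4% with balanced values, 32.6% from 40 kb, 41.0% up to 500 kb, 24.7% up to 2 Mb, and 30.2%, 27.4%, 36.7% and 46.3% by bin. The 24.7% counts pairs inside the segment on both sides, unlike the 24.1% used in the ranking among segments. The share 1 to 2 Mb to the left was 28.9% with balanced values, 31.6% from 40 kb, and 27.0%, 29.0%, 33.8% and 28.0% by bin. By all counts the residual was 3.32% in DelB and 1.71% in DelBs, and in DelBs 1.18%, 1.17% and 1.56% in the bins of 77.49, 77.50 and 77.52 Mb. Stretches under 100 counts and the spread between embryos limit what small differences can show.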
